A study of Mus musculus with 19 samples.

Results

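The 9 genes described here encode subunits of the Polycomb repressive complexes, namely Ezh1, Ezh2, Eed and Suz12 of PRC2, and Cbx2, Cbx7, Cbx8, Bmi1 and Rnf2 of PRC1. They were chosen by name, and all 9 are rows of both deposited expression tables, out of 22193 genes. The tables hold bulk RNA sequencing of mouse cerebellum (C57BL/6, postnatal day 60). Ctrl is wild type with 3 libraries. In Olig1-Gnas (8 libraries) and hGFAP-Gnas (8 libraries) Gnas, the gene of the stimulatory G protein alpha subunit Gsa, was deleted conditionally by Olig1Cre and by hGFAPCre. Olig1Cre is driven by a gene of the oligodendrocyte lineage and hGFAPCre by the human GFAP promoter, which is active in neural stem and progenitor cells. Deletion is limited to the cells that expressed the Cre of their model and to the descendants of such cells. The wild-type libraries carry neither Cre, and the same 3 libraries serve both comparisons. The submitters' name for the data with hGFAP-Gnas holds the word tumor, so those knockout libraries may hold tumor tissue. The name for the data with Olig1-Gnas lacks the word, which does not show that those libraries lack tumor tissue. The labels do not say whether each library is 1 animal or a pool, so the p-values measure the spread between these libraries.

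PRC2 places methyl groups on lysine 27 of histone H3, with EZH2 or EZH1 as its catalytic subunit and EED and SUZ12 as its core partners. PRC1 ubiquitinates histone H2A through RING1A or RING1B (the product of Rnf2), is organised by a PCGF subunit such as BMI1, and in its canonical form reads the PRC2 mark through a CBX subunit. In general EZH2 is the form of dividing progenitors and EZH1 that of cells that have left the cycle, and Bmi1 is known in the cerebellum for the expansion of granule neuron progenitors.

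The deleted gene and the state of the libraries come before the members. Gnas stood at 651 and 798 FPKM (Cufflinks' expression level per transcript length and library size) in Ctrl 1 and 2 and is listed at 0 in Ctrl 3. These are the values of the table with Olig1-Gnas; the table with hGFAP-Gnas repeats Ctrl 2 and 3 but lists Ctrl 1 at 0 as well, so there 2 of 3 Ctrl libraries are at 0. It stood at 0 to 121 FPKM in Olig1-Gnas, and in hGFAP-Gnas it is listed at 0 in every library except hGFAP-Gnas 5, at 40.9 FPKM. Ctrl 1 was thus listed at both 651 FPKM and 0, so a listed 0 of Gnas can be a failed estimate. The listed 0 values in the knockouts therefore do not by themselves show the deletion. The library labelled Ctrl 3 was near the other Ctrl libraries in Mki67, a gene of dividing cells (0.215 against 0.188 and 0.326 FPKM). In Gabra6, a receptor gene of mature granule neurons, it stood below the other Ctrl libraries (224 against 370.4 and 468 FPKM). In choroid plexus markers Ctrl 3 stood far above them, as given with the cell type markers. Among the knockouts, 2 libraries stood apart. Olig1-Gnas 6 lay far from the other Olig1-Gnas libraries in 12.0% of the genes tested (0.19 to 1.21% for the other libraries), and hGFAP-Gnas 1 in 7.65% (0.0559 to 2.89%). hGFAP-Gnas 1 had 2.70 FPKM of Mki67 and 260.5 FPKM of Gabra6, next to 43.0 to 165 and 4.48 to 159 FPKM in the other hGFAP-Gnas libraries. Relative depth, inferred from the steps between low values, was 0.832 to 1.07 of that of Ctrl 2 in 10 libraries and 0.271 to 0.431 in the other 9, among them Ctrl 3, and both classes occur in every group. Ddx3y, a Y-linked gene, was at 1 FPKM or more in 2 of the 3 Ctrl libraries. The same held in 2 of the 8 Olig1-Gnas libraries and in 7 of the 8 from hGFAP-Gnas. With this signal as a term, the counts of members called against Ctrl were the same as those given below. Between the knockouts 0 members were called with or without the term, while genes called fell from 59 to 3. Members at an unadjusted p under 0.05 by limma in that comparison fell from 4 to 1, and genes from 3410 to 652 of 14386.

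In Ctrl, Ezh1 was the main catalytic gene of PRC2, and in the knockouts it was Ezh2. Ezh2 stood at 5.07, 4.54 and 5.62 FPKM in Ctrl 1 to 3. It ranged from 15.2 to 172 FPKM in Olig1-Gnas, with a median of 98.3, and from 6.55 to 91.4 FPKM in hGFAP-Gnas, with a median of 67.4. All 16 knockout libraries lay above all 3 Ctrl libraries, and the lowest of each group were the libraries that stood apart, Olig1-Gnas 6 and hGFAP-Gnas 1. Ezh1 stood at 27.1, 27.1 and 26.01 FPKM in Ctrl. It ranged from 9.37 to 16.8 FPKM in Olig1-Gnas (median 13.9) and from 11.9 to 38.1 FPKM in hGFAP-Gnas (median 15.6). Every Olig1-Gnas library and 7 of 8 hGFAP-Gnas libraries lay below Ctrl, and hGFAP-Gnas 1 lay above it.

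Ezh2 rose in both knockouts, by 3.79 ± 0.55 (log2 difference of FPKM + 1 ± SE) in Olig1-Gnas (adjusted p = 0.000139) and by 3.08 ± 0.64 in hGFAP-Gnas (adjusted p = 0.00909), by limma over all genes tested. Its mean level was 19.1 times that of Ctrl in Olig1-Gnas and 12.1 times in hGFAP-Gnas. Ezh1 fell by 0.95 ± 0.17 in Olig1-Gnas (adjusted p = 0.000507), to 13.6 ± 2.68 FPKM (SD, n = 8) from 26.7 ± 0.63 (SD, n = 3). In hGFAP-Gnas its difference of −0.57 ± 0.28 did not pass the test (adjusted p = 0.126, 95% interval −1.19 to 0.06), and without hGFAP-Gnas 1 it was −0.72 (adjusted p = 0.00494). The rise of Ezh2 was as large without the distant libraries: 4.13 in Olig1-Gnas without Olig1-Gnas 6, and 3.48 in hGFAP-Gnas without hGFAP-Gnas 1.

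Because FPKM is divided by transcript length, the 2 genes can be set side by side within a library. Ezh2 made up 15.7, 14.4 and 17.8% of the summed FPKM of Ezh1 and Ezh2 in Ctrl, so Ezh1 was 4.62 to 5.96 times as high as Ezh2. In Olig1-Gnas the Ezh2 share was 84.7 ± 9.64% (SD, n = 8; 61.8 to 92.4%), and Ezh2 exceeded Ezh1 in every library, by 1.62 times in Olig1-Gnas 6 and by 4.76 to 12.1 times in the others. In hGFAP-Gnas it was 71.5 ± 24.5% (SD, n = 8), with 14.7% in hGFAP-Gnas 1, 60.8% in hGFAP-Gnas 7 and 76.1 to 87.5% in the rest. The share in hGFAP-Gnas 1 lay within the range of Ctrl. These shares are descriptions with no test. The mean level of Ezh1 in Olig1-Gnas was 0.508 of that in Ctrl, next to the 19.1 times of Ezh2.

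**Figure D1:**
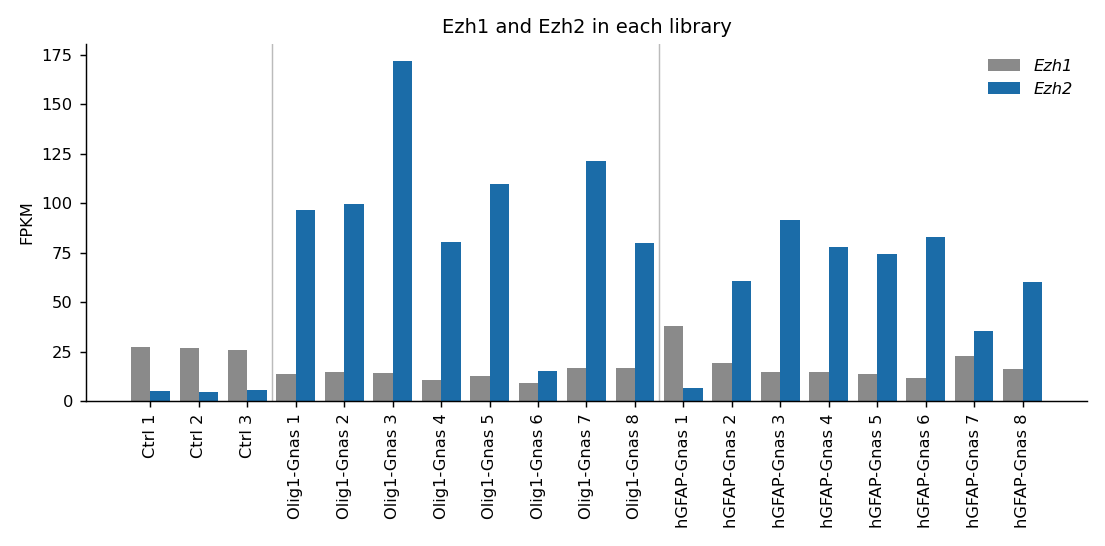
Level of Ezh1 (grey) and Ezh2 (blue) in FPKM in each of the 19 libraries, 1 pair of bars per library, with lines between the groups. Ezh1 is the taller bar in the 3 Ctrl libraries and in hGFAP-Gnas 1, and Ezh2 in the other 15 libraries, least clearly in Olig1-Gnas 6 and hGFAP-Gnas 7.

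The upstream sequence of both genes is shown because they changed in opposite directions. The 250 bases before the start site are given 5′ to 3′ from RefSeq (GRCm38.p6), in lower case; 8 of the 9 members matched an entry.
Ezh2 promoter window, chr6:47595031-47595280, minus strand: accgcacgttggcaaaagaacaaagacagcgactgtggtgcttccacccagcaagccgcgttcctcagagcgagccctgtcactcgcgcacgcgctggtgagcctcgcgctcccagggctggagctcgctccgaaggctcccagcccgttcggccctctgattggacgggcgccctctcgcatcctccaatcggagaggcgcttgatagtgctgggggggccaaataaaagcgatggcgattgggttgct
Ezh1 promoter window, chr11:101226464-101226713, minus strand: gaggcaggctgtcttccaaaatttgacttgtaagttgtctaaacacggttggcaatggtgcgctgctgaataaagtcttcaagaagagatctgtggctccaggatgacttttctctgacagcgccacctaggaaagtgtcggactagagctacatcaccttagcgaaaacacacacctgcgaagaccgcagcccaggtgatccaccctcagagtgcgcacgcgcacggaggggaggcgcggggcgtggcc
The Ezh2 window is 63.6% G and C and that of Ezh1 55.2%. The windows with the first 50 transcribed bases were searched on both strands for E2F words (TTTCCCGC, TTTCGCGC, TTTGCCGC, TTTGGCGC), which cell cycle factors of the E2F family recognise, for the cAMP response element TGACGTCA and for the GLI word TGGGTGGTC of hedgehog signaling. An E2F word was found in Ezh2 and Suz12 and the cAMP element in Cbx8, and none of the 8 windows held the GLI word. Of 32851 RefSeq windows of the same length, 2.26% held an E2F word, 1.79% the cAMP element and 0.253% the GLI word. The matched words are in capitals below, and a match is a description of the letters, not a shown binding site.
Ezh2 E2F match, chr6:47595009-47595038, minus strand: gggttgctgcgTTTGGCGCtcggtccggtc
Suz12 E2F match, chr11:79992876-79992905, plus strand: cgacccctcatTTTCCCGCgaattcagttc
Cbx8 CRE match, chr11:119040924-119040953, minus strand: gggaggagaacTGACGTCAgcgggagagta
The Ezh2 word begins 3 bases after the start site, the Suz12 word 219 bases before it and the Cbx8 element 29 bases before it.

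The core partners of the catalytic subunits moved less than Ezh2. Eed, which binds the methyl mark, stood at 15.8, 14.8 and 13.6 FPKM in Ctrl, at 22.2 to 27.4 FPKM in Olig1-Gnas (median 24.2) and at 11.5 to 24.4 FPKM in hGFAP-Gnas (median 20.4). It rose by 0.70 ± 0.11 in Olig1-Gnas (adjusted p = 0.00016), with no overlap with Ctrl. In hGFAP-Gnas its difference was 0.38 ± 0.20 (adjusted p = 0.139), with 7 of 8 libraries above Ctrl and hGFAP-Gnas 1 below it, and it was 0.48 without that library (adjusted p = 0.00762). Suz12, which is needed for assembly and stability of PRC2, stood at 18.6, 18.8 and 19.5 FPKM in Ctrl, at 29.4 to 68.1 FPKM in Olig1-Gnas (median 40.0) and at 20.5 to 41.8 FPKM in hGFAP-Gnas (median 32.3). It rose by 1.11 ± 0.23 in Olig1-Gnas (adjusted p = 0.00119) and by 0.63 ± 0.22 in hGFAP-Gnas (adjusted p = 0.0388), and neither group overlapped with Ctrl. Its highest value was in Olig1-Gnas 6, the library with the lowest Ezh2 of that group. Suz12 was not called in Olig1-Gnas among the shallower libraries alone (0.89, adjusted p = 0.103). In hGFAP-Gnas only 8 of 23 alternatives called it, with adjusted p up to 0.360.

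Among the CBX readers, Cbx2 rose in both knockouts, Cbx7 fell in Olig1-Gnas and Cbx8 did not pass the test in either. Cbx2 stood at 2.61, 2.44 and 1.57 FPKM in Ctrl, at 15.7 to 35.98 FPKM in Olig1-Gnas (median 23.1) and at 3.08 to 28.4 FPKM in hGFAP-Gnas (median 19.7). It rose by 2.99 ± 0.22 in Olig1-Gnas (adjusted p = 4.04e-07) and by 2.30 ± 0.50 in hGFAP-Gnas (adjusted p = 0.01), and all 16 knockout libraries lay above Ctrl. In hGFAP-Gnas 1 its level of 3.08 FPKM was just above the highest Ctrl library. Cbx7, a CBX gene best known from embryonic stem cells, stood at 32.3, 33.2 and 41.9 FPKM in Ctrl. It ranged from 2.26 to 20.5 FPKM in Olig1-Gnas (median 5.46) and from 4.92 to 44.1 FPKM in hGFAP-Gnas (median 11.9). Within Olig1-Gnas, libraries 7 and 8 stood at 17.2 and 20.5 FPKM and the other 6 at 2.26 to 6.25 FPKM.

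Cbx7 fell by 2.26 ± 0.49 in Olig1-Gnas (adjusted p = 0.00195), with no overlap with Ctrl. The call was lost among the deeper libraries alone (−1.58, adjusted p = 0.0639), which hold libraries 7 and 8. In hGFAP-Gnas the difference was −1.40 ± 0.54 (adjusted p = 0.0582), with 7 of 8 libraries below Ctrl and hGFAP-Gnas 1 above it, and without that library it was −1.65 (adjusted p = 0.0068). Cbx8 stood at 15.7, 18.1 and 7.74 FPKM in Ctrl, at 5.12 to 14.8 FPKM in Olig1-Gnas (median 11.9) and at 7.004 to 11.4 FPKM in hGFAP-Gnas (median 10.2). Ctrl alone spanned more than either knockout group, with Ctrl 3 the low library. Its differences were −0.21 ± 0.30 in Olig1-Gnas (adjusted p = 0.560, 95% interval −0.86 to 0.44) and −0.40 ± 0.23 in hGFAP-Gnas (adjusted p = 0.168, 95% interval −0.90 to 0.09). The sign of both differences turned among the shallower libraries, to 0.69 and 0.42. Cbx2 (chr11:118884342-118892584 in mm9) and Cbx8 (chr11:118899749-118902227) lie close together on chromosome 11.

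Set against each other per length, the mix of CBX genes differed between the groups. Of the summed FPKM of Cbx2, Cbx6, Cbx7 and Cbx8, Cbx2 made up 1.72 ± 0.358% in Ctrl (SD, n = 3), 39.9 ± 10.9% in Olig1-Gnas (SD, n = 8) and 24.7 ± 14.4% in hGFAP-Gnas (SD, n = 8). Cbx6 was the largest share in Ctrl, at 59.2%, and stood at 29.2% in Olig1-Gnas and 43.7% in hGFAP-Gnas. Cbx7 stood at 28.4% in Ctrl, 12.3% in Olig1-Gnas and 18.4% in hGFAP-Gnas, and Cbx8 at 10.7, 18.6 and 13.2%. The Cbx2 share of hGFAP-Gnas 1 was 2.66%, next to 1.33 to 2.03% in Ctrl, and hGFAP-Gnas 2 and 7 followed with 12.3 and 10.3%. The Cbx8 share was higher in Olig1-Gnas although the FPKM of Cbx8 itself did not pass the test. These shares carry no test.

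**Figure D2:**
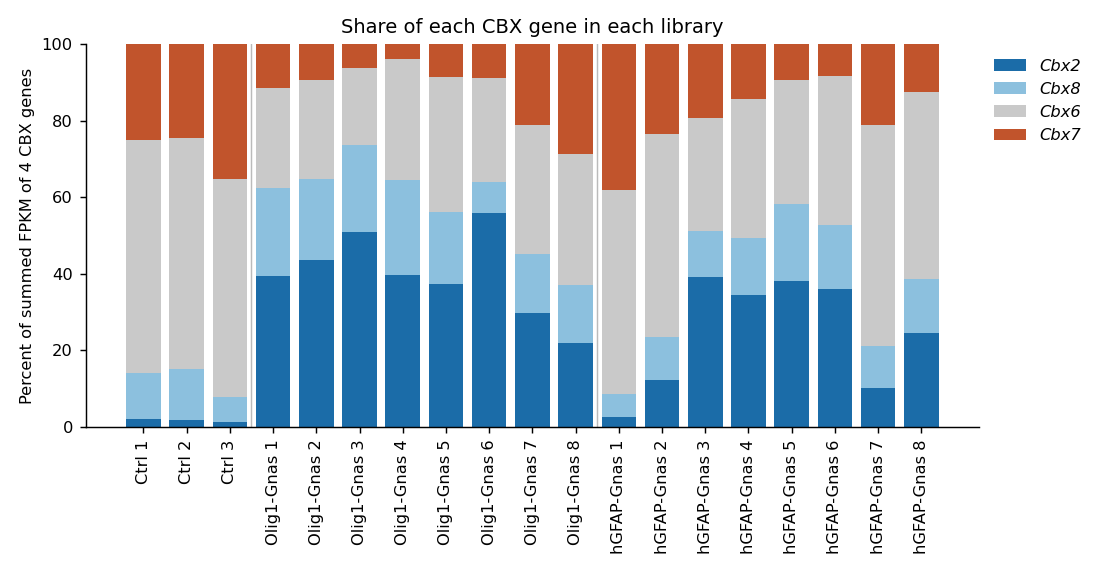
Share of Cbx2, Cbx8, Cbx6 and Cbx7 in their summed FPKM, in percent, as 1 stacked bar for each of the 19 libraries. Cbx2 takes 1.33 to 2.03% in the Ctrl libraries and 21.9 to 55.99% in Olig1-Gnas, and the bar of hGFAP-Gnas 1 resembles those of Ctrl.

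Both other PRC1 members rose. Bmi1, the PCGF subunit of canonical PRC1, stood at 21.9, 20.8 and 15.6 FPKM in Ctrl, at 50.5 to 77.6 FPKM in Olig1-Gnas (median 65.7) and at 19.3 to 64.0 FPKM in hGFAP-Gnas (median 37.0). It rose by 1.69 ± 0.16 in Olig1-Gnas (adjusted p = 3.87e-06), with no overlap, and by 0.90 ± 0.29 in hGFAP-Gnas (adjusted p = 0.0321), where hGFAP-Gnas 1 lay within the Ctrl range. Rnf2, the catalytic RING subunit, stood at 13.0, 13.4 and 9.71 FPKM in Ctrl, at 27.9 to 45.3 FPKM in Olig1-Gnas (median 38.4) and at 14.7 to 38.9 FPKM in hGFAP-Gnas (median 31.5). It rose by 1.54 ± 0.16 (adjusted p = 6.26e-06) and by 1.16 ± 0.28 (adjusted p = 0.0126), and neither group overlapped with Ctrl. In hGFAP-Gnas, 16 of 23 alternatives called Bmi1 and 17 of 23 called Rnf2. Against their alternatives, Rnf2 made up 72.4, 74.3 and 70.5% of Rnf2 plus Ring1 in Ctrl, Olig1-Gnas and hGFAP-Gnas, and Bmi1 made up 60.2, 69.0 and 54.8% of Bmi1 plus Pcgf2. For both pairs the group ranges of these shares overlapped.

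**Figure D3:**
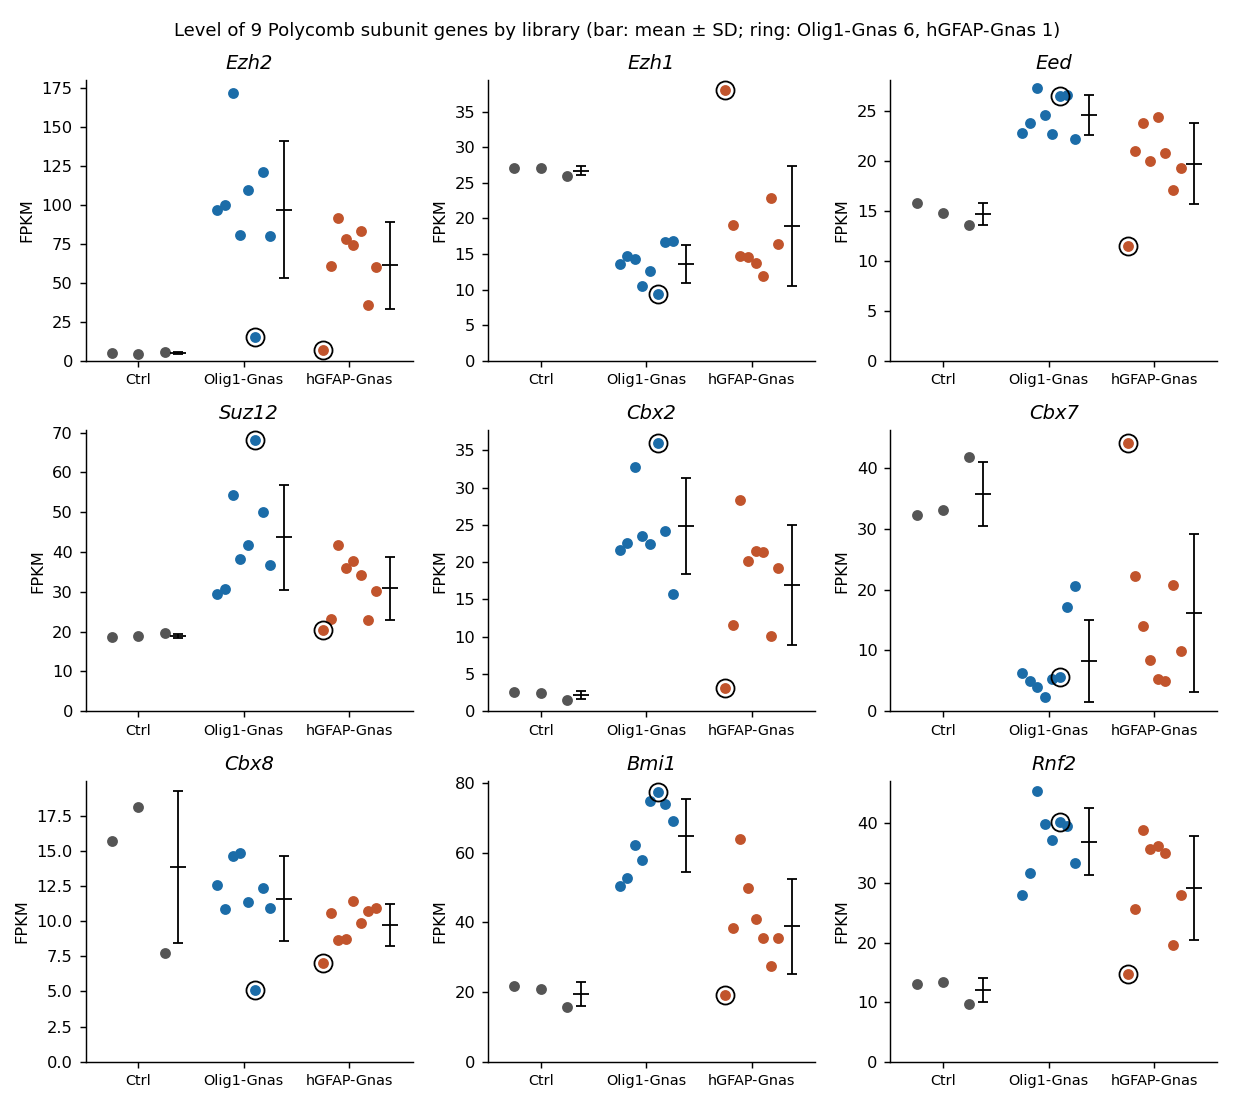
Level of each of the 9 genes in FPKM, with 1 point per library, 1 panel per gene and mean ± SD beside each group (n = 3, 8 and 8); rings mark Olig1-Gnas 6 and hGFAP-Gnas 1. In 8 panels, all but that of Cbx8, the Olig1-Gnas points lie wholly above or below Ctrl, and in the same 8 hGFAP-Gnas 1 lies at the Ctrl end of its group.

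In total, 8 of the 9 members were called in Olig1-Gnas, 6 higher and 2 lower, against a background of 59.8% of 14183 genes called in that comparison (36.2% higher, 23.6% lower). The same 8 members did not overlap between the groups, as was the case for 53.7% of all genes tested. The median log2 difference of the members was 1.11, next to 0.22 over all genes. In hGFAP-Gnas 5 of 9 members were called, all higher (Ezh2, Cbx2, Rnf2, Bmi1 and Suz12), against 38.9% of 14305 genes called (26.1% higher). There was no overlap with Ctrl for 4 members, all higher (Ezh2, Cbx2, Rnf2 and Suz12), against 23.8% of all genes (15.2% higher), and the members' median was 0.63, next to 0.19. With so many genes called, the counts are read against these shares. Quantile normalization, which brought the median over all genes down to 0.06 (Olig1-Gnas) and −0.01 (hGFAP-Gnas), reversed no member. Under it 4 members were called higher in hGFAP-Gnas and 1 lower (37.3% of genes): Suz12 lost its call (adjusted p = 0.0698) and Cbx7 was called lower (adjusted p = 0.0483).

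The hGFAP-Gnas count depended on single libraries. Without hGFAP-Gnas 1, 8 members were called (57.4% of genes), the 6 higher and 2 lower being those of Olig1-Gnas. Leaving out Ctrl 1 or Ctrl 2 left Ezh2 and Cbx2 (7.36 and 5.74% of genes called). Leaving out Ctrl 3 left these 2 with Cbx8, then lower by 0.75 (adjusted p = 0.0373; 13.5% of genes). The calls over all genes thus dropped along with those of the members. Leaving out hGFAP-Gnas 4 or 5 left Ezh2, Cbx2 and Rnf2 (28.7 and 29.8% of genes). Among the deeper libraries alone (2 Ctrl and 4 hGFAP-Gnas) limma called 0 members and 0.0433% of genes, with 4 members at an unadjusted p under 0.05, and among the shallower (1 Ctrl, assumed to vary like the knockout libraries) it called Ezh2, Cbx2 and Bmi1 (16.9% of genes). For the deeper libraries of that comparison, 2651 of 13872 genes were at an unadjusted p under 0.05 by limma, next to the 4 members. In Olig1-Gnas 8 members were called whichever library was left out, with 67.5% of genes called when this was Olig1-Gnas 6. Among the deeper libraries 7 were called (45.7% of genes) and among the shallower 7 (39.2%).

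**Figure D4:**
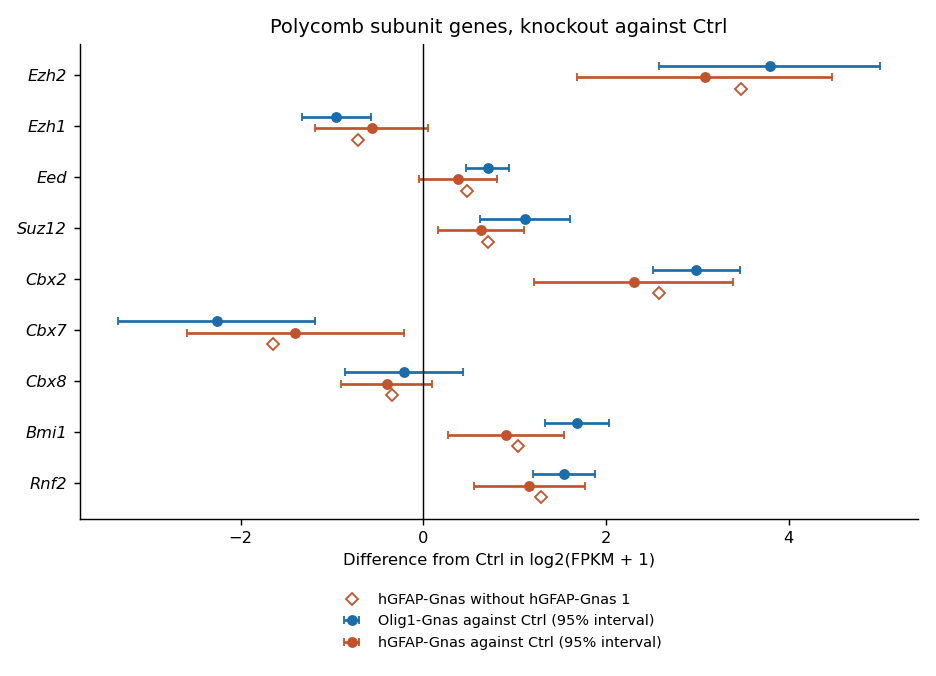
Difference from Ctrl in log2(FPKM + 1) for each of the 9 genes, as the limma estimate with its 95% interval for Olig1-Gnas (blue) and hGFAP-Gnas (orange); open diamonds give hGFAP-Gnas without hGFAP-Gnas 1. Ezh2, Cbx2, Bmi1, Rnf2 and Suz12 lie right of 0 in both, and leaving out hGFAP-Gnas 1 moves every gene but Cbx8 away from 0.

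Between the knockouts, 0 of 9 members were called by limma, where 0.41% of 14386 genes were called. An unadjusted p under 0.05 by limma was reached by 4 members and by 3410 of the 14386 genes. All 9 members overlapped between the groups, and 0.598% of genes did not. Bmi1 came closest, lower in hGFAP-Gnas by 0.78 ± 0.19 (adjusted p = 0.0805, 95% interval −1.19 to −0.38). It passed with depth class as a term, with Ctrl in the same fit, and without hGFAP-Gnas 3 (adjusted p = 0.0485, 0.0442 and 0.0393). The intervals of the difference, hGFAP-Gnas minus Olig1-Gnas, were −1.79 to 0.37 for Ezh2, −0.03 to 0.80 for Ezh1, −1.36 to −0.01 for Cbx2 and −0.08 to 1.80 for Cbx7. Eed, Suz12, Rnf2 and Cbx8 had differences of −0.33, −0.48, −0.38 and −0.19. Equal levels are not shown by these intervals, which reach past a 2-fold difference for Ezh2, Cbx2, Cbx7 and Bmi1.

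Other subunits of the complexes were taken from lists of 8 PRC2, 18 PRC1 and 8 PR-DUB genes, the last being the deubiquitinase that opposes PRC1. None of these genes was called between the knockouts. Their counts against Ctrl stand beside 59.8% of all genes called in Olig1-Gnas and 38.9% in hGFAP-Gnas. Of the 8 PRC2 genes, 4 rose and 1 fell in Olig1-Gnas, a share near that of all genes, and 5 rose in hGFAP-Gnas. Leaving out Ctrl 1, Ctrl 2 or Ctrl 3 left 0 of the 8 called in hGFAP-Gnas (7.36, 5.74 and 13.5% of all genes). Among the deeper libraries alone 0 of the 8 were called there as well (0.0433% of genes). Rbbp4, a histone-binding core subunit, rose from 31.2 ± 1.61 FPKM (SD, n = 3) to 103 ± 21.4 in Olig1-Gnas and 74.8 ± 21.9 in hGFAP-Gnas (SD, n = 8 each), by 1.67 ± 0.16 and 1.17 ± 0.30. Its partner Rbbp7 rose by 0.89 ± 0.15 and 0.69 ± 0.17. E130012A19Rik, also known as Epop, a PRC2 cofactor, rose by 1.41 ± 0.32 and 1.49 ± 0.40. Phf1, a Polycomb-like accessory subunit, fell by 0.74 ± 0.26 in Olig1-Gnas (adjusted p = 0.0273) and was −0.68 ± 0.25 in hGFAP-Gnas (adjusted p = 0.0519). The medians of the list were 0.65 and 0.63, next to 0.22 and 0.19 over all genes.

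Of the 18 other PRC1 genes, 8 rose and 3 fell in Olig1-Gnas, and 5 rose and 1 fell in hGFAP-Gnas, with medians of 0.27 and 0.16, next to 0.22 and 0.19. The called share of this list was near that of all genes in Olig1-Gnas and below it in hGFAP-Gnas. Phc1, a polyhomeotic subunit, rose by 1.59 ± 0.19 and 1.21 ± 0.23, and Pcgf2, the close relative of Bmi1, by 1.11 ± 0.26 and 1.20 ± 0.23. Cbx6 fell by 1.99 ± 0.22 in Olig1-Gnas, from 75.5 ± 7.28 FPKM (SD, n = 3) to 18.7 ± 5.31 (SD, n = 8), and by 1.18 ± 0.38 in hGFAP-Gnas. Phc3, a relative of Phc1, fell by 0.53 ± 0.18 in Olig1-Gnas (adjusted p = 0.0213; 0.123 without Ctrl 3) and was −0.49 ± 0.25 in hGFAP-Gnas (adjusted p = 0.134). Auts2, a subunit of a PRC1 form of neurons, fell by 0.88 ± 0.13 in Olig1-Gnas and was −0.69 ± 0.33 in hGFAP-Gnas (adjusted p = 0.108). Ring1, the alternative to Rnf2, rose by 1.35 ± 0.41 and 1.27 ± 0.30, but its Ctrl values were 2.84, 2.17 and 10.1 FPKM, and among the shallower libraries, where Ctrl 3 is the only control, its differences were 0.36 and 0.09 (adjusted p = 0.219 and 0.728).

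Of the 8 PR-DUB genes, 4 rose and 1 fell in Olig1-Gnas and 3 rose in hGFAP-Gnas, both shares near those of all genes. The scaffold Asxl1 rose by 1.47 ± 0.17 and 1.18 ± 0.21, Asxl3 by 1.02 ± 0.24 and 1.09 ± 0.33, and Mbd6 by 1.13 ± 0.22 and 0.92 ± 0.24, while Mbd5 fell by 0.94 ± 0.15 in Olig1-Gnas. Bap1, the catalytic subunit, had differences of 0.18 and 0.11 that did not pass (adjusted p = 0.239 and 0.402). Of 4 genes that act on the same lysine, the demethylases Kdm6a and Kdm6b and the acetyltransferases Crebbp and Ep300, 0 were called by limma in either knockout. Without Olig1-Gnas 6, Kdm6b was called higher and Ep300 lower in Olig1-Gnas. Without hGFAP-Gnas 1, the counts in hGFAP-Gnas were 5 and 1 for PRC2, 7 and 3 for PRC1 and 3 and 1 for PR-DUB (higher and lower). Leaving out Ctrl 1 or Ctrl 2 left only Pcgf2, Phc1 and Asxl1 of these lists called in hGFAP-Gnas. Without Ctrl 3, Ring1 and Mbd6 were called with them. Among the deeper libraries alone 0 genes of these lists were called in hGFAP-Gnas.

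Loci that Polycomb is known to silence were read beside the members. Cdkn2a, which encodes the inhibitors p16 and p19ARF, stood at 0.327, 0.110 and 0.148 FPKM in Ctrl, at 12.8 to 142 FPKM in Olig1-Gnas (median 22.2) and at 0.408 to 17.2 FPKM in hGFAP-Gnas (median 5.87). It rose by 5.05 ± 0.79 (adjusted p = 0.000265) and by 2.43 ± 0.60 (adjusted p = 0.0138), with no overlap with Ctrl, and hGFAP-Gnas 1 was the low library. Within Olig1-Gnas, libraries 3, 4 and 7 stood at 111 to 142 FPKM and the other 5 at 12.8 to 24.0 FPKM. Its neighbour Cdkn2b rose by 1.78 ± 0.42 and 1.02 ± 0.27. In hGFAP-Gnas neither Cdkn2a nor Cdkn2b was called without Ctrl 1, Ctrl 2 or Ctrl 3, or among the deeper libraries alone. Under quantile normalization Cdkn2a kept its call in hGFAP-Gnas and Cdkn2b lost it. The knockouts differed by −2.62 ± 0.60 in Cdkn2a (adjusted p = 0.0608), and the difference passed with depth class as a term or with Ctrl in the same fit (adjusted p = 0.0445 and 0.0298). None of the 39 Hox genes passed the filter of at least 1 FPKM in at least 3 libraries, so none was tested. Their summed level was 0.345, 0.441 and 10.6 FPKM in Ctrl, 0.880 to 3.91 FPKM in Olig1-Gnas and 0.274 to 24.5 FPKM in hGFAP-Gnas. The 24.5 FPKM was that of hGFAP-Gnas 4 alone. The next highest of its group was hGFAP-Gnas 2 at 5.36 FPKM, and the median of hGFAP-Gnas was 0.868 FPKM.

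Genes that mark cell types also differed between the knockouts and Ctrl. In bulk tissue, fewer cells of a type and less RNA per cell cannot be told apart. The marker counts stand beside 59.8% of all genes called in Olig1-Gnas and 38.9% in hGFAP-Gnas. All 8 markers of dividing cells rose in both knockouts, from a summed level of 36.5 to 42.0 FPKM in Ctrl to 777 to 1504 FPKM in Olig1-Gnas and 56.0 to 1065 FPKM in hGFAP-Gnas. All 5 markers of granule progenitors rose in both, from 6.29 to 6.94 FPKM to 384 to 717 FPKM and 26.1 to 659 FPKM. Markers of mature granule neurons fell in 5 of 5 and 4 of 5 cases, from 1028 to 1394 FPKM to 8.07 to 280.0 FPKM and 34.6 to 927 FPKM. Purkinje cell markers fell in 5 of 5 and 4 of 5 cases, from 1951 to 3138 FPKM to 9.98 to 626 FPKM and 71.8 to 1514 FPKM. Microglia and macrophage markers rose in 5 of 5 cases in both, from 40.2 to 55.2 FPKM to 334 to 1159 FPKM and 80.9 to 734 FPKM. Mature oligodendrocyte markers fell in 5 of 5 and 1 of 5 cases, astrocyte markers in 3 of 5 and 2 of 5 with 1 rise each, and choroid plexus markers rose in 1 of 4 and 0 of 4. The choroid plexus sum was 4.78, 23.2 and 1232 FPKM in Ctrl 1 to 3, 15.7 to 2379 FPKM in Olig1-Gnas and 7.29 to 922 FPKM in hGFAP-Gnas, highest in library 8 of both knockouts. Without Ctrl 1, Ctrl 2 or Ctrl 3, hGFAP-Gnas had 0 of 5 granule neuron and 0 of 5 Purkinje cell markers called. The shares of all genes called were then 7.36, 5.74 and 13.5%. Dividing cell markers had 8, 7 and 8 of 8 called, and granule progenitor markers 4 of 5 each time. Of the microglia and macrophage markers 4, 3 and 5 of 5 were called. Among the deeper libraries alone 0 markers of any list were called in hGFAP-Gnas (0.0433% of genes). No marker was at 0 in all libraries of a group. Granule neuron and Purkinje cell markers were high in Ctrl, as befits cerebellum. The part of cell makeup in the members' differences was not tested.

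The members were also set against Mki67 and Gabra6 among the 8 libraries of each knockout, 36 relations in all. Exact permutation over 40320 pairings was used, with Benjamini-Hochberg adjustment. These relations show which levels vary together and do not test the part of cell makeup. In hGFAP-Gnas 7 of 9 members passed with Mki67 and 7 of 9 with Gabra6 by Pearson's r, but 1 and 3 by Spearman's rho. Genes other than the members were not put through this test, so no share over all genes stands beside these counts. They are not read as particular to the members. hGFAP-Gnas 1 held the lowest Mki67 (2.70 FPKM) and the highest Gabra6 (260.5 FPKM) of its group. Those passing both were Cbx7 with Mki67 (r = −0.89, rho = −0.93), and with Gabra6 Suz12 (−0.95, −0.93), Rnf2 (−0.92, −0.93) and Bmi1 (−0.81, −0.90), by exact permutation. Ezh2 had r = 0.95 with Mki67 (adjusted exact permutation p = 0.0323) and rho = 0.62 (adjusted exact permutation p = 0.218). Without hGFAP-Gnas 1 and 2, the libraries farthest in Mki67, its r was 0.69. Ezh1 had r = −0.95 with Mki67 (adjusted exact permutation p = 0.00893), rho = −0.88 (adjusted exact permutation p = 0.0521), and r = −0.86 without the same 2 libraries.

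In Olig1-Gnas 1 of 9 members passed with each marker by Pearson's r and 0 by Spearman's rho. Cbx2 had r = 0.92 and rho = 0.74 with Mki67 (adjusted exact permutation p = 0.0133 and 0.165), and r = 0.74 without Olig1-Gnas 6 and 8. Cbx7 had r = 0.95 and rho = 0.71 with Gabra6 (adjusted exact permutation p = 0.0138 and 0.173), and r = 0.64 without Olig1-Gnas 7 and 8, so the relation rests partly on these. Ezh2 had r = −0.42 with Mki67, which became 0.37 without Olig1-Gnas 6 and 8: Olig1-Gnas 6 held the highest Mki67 (264 FPKM) and the lowest Ezh2 of its group. Libraries of a group share the tissue and the processing, and differ in depth class.

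**Figure D5:**
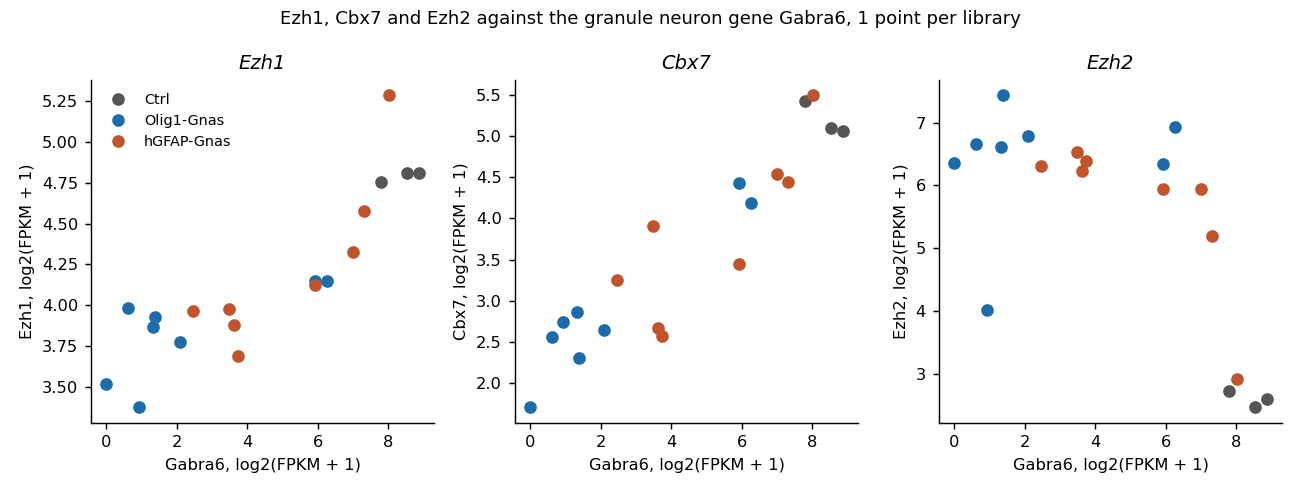
Level of Ezh1, Cbx7 and Ezh2 against Gabra6, a gene of mature granule neurons, all in log2(FPKM + 1), with 1 point per library colored by group. Ezh1 and Cbx7 are high where Gabra6 is high, and hGFAP-Gnas 1 lies by the Ctrl points in all 3 panels; the low blue point in the Ezh2 panel is Olig1-Gnas 6.

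Over all 19 libraries and 14591 genes, the 5 genes whose log2(FPKM + 1) followed Ezh2 most closely by Pearson's r were Cklf (0.98), Sox18 (0.98), Mum1 (0.98), BC017612 (0.98) and Neurod6 (0.98). Within groups their r with Ezh2 was 0.90 to 0.97 among the Olig1-Gnas libraries and 0.95 to 0.99 among those of hGFAP-Gnas. Mki67 reached 0.88 over all libraries. The 3 closest to Ezh1 were Tead4 (0.97), Kat2b (0.95) and Cdon (0.95). These values describe likeness over libraries that share groups and controls, and carry no test. Sox18, an endothelial transcription factor, stood at a mean of 2.61 FPKM in Ctrl, 121 in Olig1-Gnas and 68.8 in hGFAP-Gnas. Tead4, a factor of the Hippo pathway, stood at 3.55, 0.448 and 1.39 FPKM in the same order.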

How the data were processed

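RNA of 19 mouse cerebellum libraries was extracted with Trizol and RNeasy and made into TruSeq libraries, per the labels' protocols. The deposited values are FPKM per gene, made by the authors with TopHat and Cufflinks on mm9, per the submitters' processing notes. Versions, annotation and read totals are not given in the sources used here. Each knockout has a table that repeats the 3 Ctrl libraries. Ctrl 2 and 3 are identical in both, and Ctrl 1 differs in 5106 genes with a median absolute log2 ratio of 0. Each comparison with Ctrl used its own table. No 2 libraries were near copies (highest correlation 0.980). FPKM summed to 505739 to 689165 per library, so depth is unknown beyond the relative classes.

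Genes that reached 1 FPKM in 3 or more of the libraries compared were tested on log2(FPKM + 1) with limma 3.58.1 (R 4.3.3; trend and robust moderation; two-sided), with Benjamini-Hochberg adjustment over all genes tested and calls below an adjusted p of 0.05. The offset of 1 understates folds of low genes. All 9 members passed the filter in each comparison. Intervals are 95% intervals of limma's estimate. A library counted as far from its group in a gene where it was the highest or lowest of 8 and its gap to the next exceeded 0.526 of the range. Named genes were the members, up to 3 called genes in each direction per list with the largest change, Cdkn2a, Cdkn2b, Gnas, the markers, the 5 genes most like Ezh2 and the 3 most like Ezh1, with others named in counts after their values were seen. A few items under these rules are not reported here. Members, lists and tests were chosen with earlier results of these data known. Alternatives changed the offset (0.1), filter, scaling, moderation, zeros, depth, Y-linked signal, replicate numbers, groups fitted and libraries left out; 2 of them, the offset in the correlations and leaving out Olig1-Gnas 6 with hGFAP-Gnas 1, were chosen after seeing the data.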

Additional observations from a re-analysis of the deposited data

Results flagged for a closer look

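Each group of 8 knockout libraries was searched for a single library far from the rest by Dixon's ratio, and 11 of 52 gene or share values had one. Chance gives about 1 in 20, but over all genes tested 15.7% in Olig1-Gnas and 14.0% in hGFAP-Gnas had such a library. A pair of libraries held 9 of the 11.

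hGFAP-Gnas 1 stood apart in Ezh1 (38.1 FPKM, others 11.9 to 22.8), in Cbx7 (44.1 FPKM, others 4.92 to 22.3), in Cdkn2b (0.515 FPKM, others 2.35 to 2.96) and in the Ezh2 share of Ezh1 plus Ezh2 (14.7%, others 60.8 to 87.5%). In all 4 it lay nearer to the Ctrl libraries than to its group. Olig1-Gnas 6 stood apart in Cbx8 (5.12 FPKM, others 10.9 to 14.8), in Ring1 (4.21 FPKM, others 12.1 to 15.7), in Asxl1 (47.4 FPKM, others 24.1 to 32.8), in E130012A19Rik (19.03 FPKM, others 4.66 to 9.65) and in the Ezh2 share (61.8%, others 82.7 to 92.4%). The remaining 2 were Auts2 in Olig1-Gnas 3 (5.71 FPKM, others 7.13 to 8.18) and E130012A19Rik in hGFAP-Gnas 3 (23.8 FPKM, others 3.92 to 11.9).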

How the results depend on the processing

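In Olig1-Gnas the count of called members was 8 whichever library was left out and 7 within either depth class. In hGFAP-Gnas it was 5, ranged from 2 to 8 with 1 library left out, and was 0 among the deeper and 3 among the shallower libraries; between knockouts it was 0, ranged from 0 to 1, and was 1 with depth class as a term or all 3 groups in 1 fit. Cbx8 changed sign: 0.69 (shallower) and, with 1 library left out, −0.55 to 0.011 in Olig1-Gnas (0.011 without Ctrl 2), and 0.42 (shallower) in hGFAP-Gnas. With 1 FPKM added to both genes the Ezh2 share of Ctrl was 17.97% in place of 16.0%; with 1 library left out the shares ranged from 15.1 to 16.8%, 83.6 to 88.0% and 69.3 to 79.7%. For single genes, 111 alternatives lost a call, 10 gained one and 1253 kept both direction and side of the threshold. With the replicate number as a block, 8, 0 and 0 members were called; in hGFAP-Gnas the replicate block left 0 genes in all by limma (2654 at an unadjusted p under 0.05, 2 of them members). Correlations of same-numbered libraries were mixed (−0.18 to 0.05, −0.10 to 0.12 and −0.17 to 0.25), so the numbers were not taken as pairs. Quantile normalization moved the share of higher calls from 60.5 to 50.6% and from 67.1 to 49.0%. The cause of these changes was not tested.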

Other observations

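Olig1-Gnas 6 departed from its group in both directions among the members. It held the highest Suz12 (68.1 FPKM), Cbx2 (35.98 FPKM) and Bmi1 (77.6 FPKM) and the highest Mki67 (264 FPKM) of the 8 Olig1-Gnas libraries, and the lowest Ezh2 (15.2 FPKM), Ezh1 (9.37 FPKM) and Cbx8 (5.12 FPKM). Suz12 exceeded Ezh2 in Olig1-Gnas 6, as in the 3 Ctrl libraries and hGFAP-Gnas 1, and Ezh2 exceeded Suz12 in the other 14 knockout libraries.

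The word CCAAT was counted in the promoter windows of RefSeq (GRCm38.p6) on both strands after the windows had been seen. The Ezh2 window held it 3 times, a number reached by 3.37% of all windows, Cbx8 held it 2 times (11.7% reach this), Eed, Suz12 and Cbx7 held 1 each (37.4%), and Ezh1, Bmi1 and Rnf2 held 0. This describes letters in a window and was not tested against expression.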
